A study of Mus musculus with 8 samples.

Results

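The protein subunits of RNase P and RNase MRP were followed in whole mouse embryos at stage E11.5 (embryonic days) that carried 0, 1 or 2 copies of an Ott1 allele with low expression. Ott1 is the older name of Rbm15, which encodes a nuclear RNA-binding protein of the Spen family. The list held 10 genes: Rpp40, Rpp14, Rpp21, Rpp25, Rpp30, Rpp38, Pop1, Pop4, Pop5 and Pop7. A member was measured where a gene probe carried the accession of one of its RefSeq transcripts, which held for 8 of the 10 genes, among 13971 genes named on the array, and for 9 of the 34967 gene probes, with 2 probes for Rpp25. Rpp14 and Rpp38 had no matched probe and are not analysed here. The set was chosen by the signal of Rpp40, which lay at background in homozygous embryos, so the values of Rpp40 there are given as a description and without a test. The other 7 measured genes, called partners below, were chosen for their place in the same enzymes.

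Each array held RNA of 1 embryo: embryos 11 and 13 were wild type, embryos 3, 10 and 15 heterozygous and embryos 2, 7 and 16 homozygous for the allele. Parents carried the allele, each embryo was genotyped, and the labels give neither litter nor sex nor how the allele was made. No probe was matched to Rbm15, so the targeted gene is not analysed here. Of the fixed marker genes of blood, neurons, skeletal muscle and heart, all with a probe were above background on all 8 arrays. Of 3 visceral endoderm genes with a probe, 2 were above background on all 8 arrays and Amn on none. For macrophages 1 of 3 genes with a probe was above background on all 8 arrays, and for trophoblast and decidua 1 of 4.

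RNase P is the ribonucleoprotein that removes the 5′ leader from precursor tRNAs. RNase MRP, built on another RNA but with mostly the same proteins, cuts the precursor of ribosomal RNA in its first internal spacer. In the human RNase P structure Pop1 forms the scaffold, Pop5, Rpp14, Rpp30 and Rpp40 form one module, Rpp21, Pop4 (also called Rpp29) and Rpp38 a further one, and Pop7 (Rpp20) pairs with Rpp25. The values below follow these modules.

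The upstream sequences of Rpp40 and Rpp30 are shown because, as given below, these are the 2 members in the RefSeq promoter table whose homozygous values all lay below those of the other embryos. Rpp21, the third such gene, had no entry. Each line holds the 250 bases before the annotated start in RefSeq's GRCm38.p6 sequence, 5′ to 3′ on the gene's strand, and capitals mark GGGCGG or its reverse complement CCGCCC, the core of a GC box, to which Sp1-family factors bind. The Rpp40 window is chr13:35906348-35906597 on the minus strand and the Rpp30 window chr19:36083466-36083715 on the plus strand.
Rpp40: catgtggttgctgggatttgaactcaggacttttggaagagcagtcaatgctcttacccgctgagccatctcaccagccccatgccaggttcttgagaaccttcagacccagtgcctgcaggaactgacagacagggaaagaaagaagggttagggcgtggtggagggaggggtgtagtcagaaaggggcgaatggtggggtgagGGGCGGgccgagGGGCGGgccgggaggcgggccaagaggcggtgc
Rpp30: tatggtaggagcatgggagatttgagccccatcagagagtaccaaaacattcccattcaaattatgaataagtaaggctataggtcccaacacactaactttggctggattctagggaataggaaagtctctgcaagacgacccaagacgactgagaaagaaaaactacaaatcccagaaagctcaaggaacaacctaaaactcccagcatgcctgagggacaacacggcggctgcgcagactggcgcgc
The GGGCGG hexamer, searched on both strands, was found 2 times in the Rpp40 window and 0 times in that of Rpp30. Among all 32851 promoter windows of this length, 32.7% held it at least once. The members Rpp25 and Pop7 held it 2 times each, Pop5 held it 1 time, and Rpp14, Rpp38 and Pop4 did not hold it. The arrays measure RNA and not binding, so these letters are a description only.

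Rpp40 gave a dim spot on every array. The scanner intensity minus the local background was 28.0 and 27.8 in wild type embryos 11 and 13, 31.2, 19.1 and 18.9 in heterozygous embryos 3, 10 and 15, and -0.88, 9.66 and 8.35 in homozygous embryos 2, 7 and 16. The scanner software called the spot above background in both wild type embryos, in heterozygous embryo 3 and in 0 of the 3 homozygous embryos. The lowest intensity called above background on any of these arrays was between 17.6 and 19.8, so the signal of heterozygous embryos 10 and 15 was right at that edge, while all 3 homozygous spots were well under it. In homozygous embryo 2 the spot mean was 56.1 and the local background median 57.

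**Figure D1:**
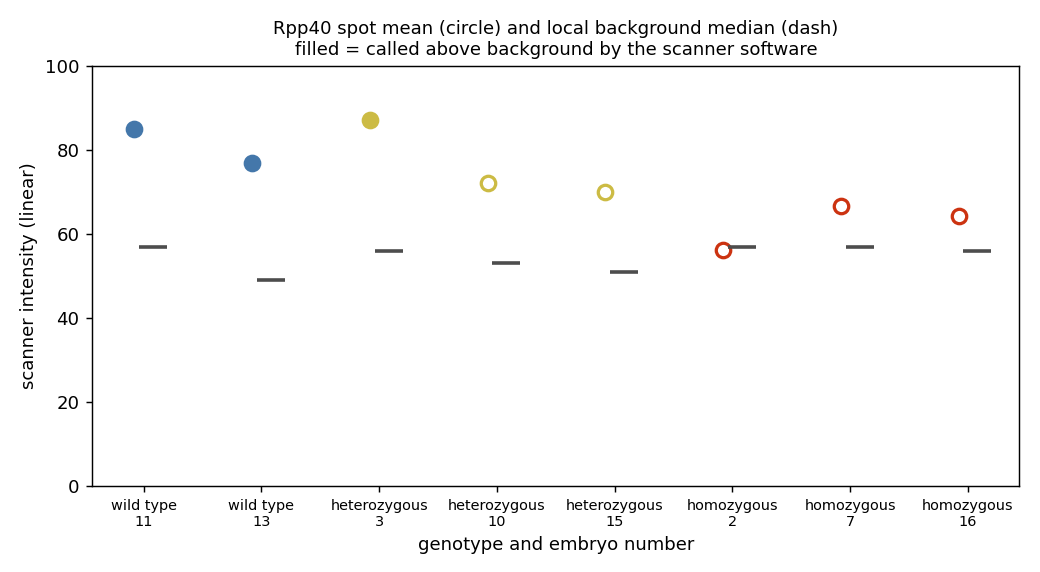
Scanner intensity (linear, from 0) of the Rpp40 spot mean (circles) and of the local background median (dashes) in each of the 8 embryos, with filled circles for spots called above background. The spot stands 18.9 to 31.2 above background in the 5 wild type and heterozygous embryos and -0.88 to 9.66 above it in the 3 homozygous embryos.

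After quantile normalization the log2 level of Rpp40 was 4.94 and 4.90 in wild type embryos, 5.05, 4.61 and 4.54 in heterozygous and 2.17, 3.36 and 2.24 in homozygous embryos. All 3 homozygous embryos lay below each of the 5 others. Because all 3 lie at background, the change is given only as an approximate bound. By the edge defined below, the bound for Rpp40 was 1.69-fold lower in homozygous than in the 5 other embryos, of which 3 were above background. Against wild type, where both were above background, it was 1.83-fold. No fold is given against heterozygous embryos, since 2 of those 3 spots were not above background either. The bound sets the mean of the brighter group against the lowest signal called above background on each homozygous array. This edge is not a strict detection limit. Its intensities were 19.8, 19.6 and 19.7 in embryos 2, 7 and 16. Among spots at background the 95th percentile was higher, at 22.0, 22.2 and 24.0. That edge was lower in embryo 16 (3.40) than in embryos 2 and 7 (4.39 and 4.35 on the log2 scale), and without embryo 16 the bound against the 5 others was 1.35-fold. The fitted log2 difference of -2.22, from 4.81 ± 0.22 (SD, n = 5) in the others to 2.59 ± 0.67 (SD, n = 3), depends on the floor set for dim spots: it was -2.77 with a lower floor and -0.48 after normexp correction with an offset of 50, a setting that pulls dim spots together. In whole embryos fewer cells that make an RNA and less of it per cell cannot be told apart. Rpp40 entered the tested set only through the wild type group, the single genotype in which every array was above background.

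In heterozygous against wild type embryos the log2 difference of Rpp40 was -0.18, with the values of both genotypes overlapping. It is given without a test too, since the probe was kept through the wild type group and 2 of 3 heterozygous spots were not above background. In this comparison 0 of 23387 probes passed an adjusted p of 0.05, 0% of those tested, against 538, or 2.3%, at an unadjusted p under 0.05. Of the 7 partners 0 reached even the unadjusted threshold here, 3 differences were negative where 51.5% of all were, and the median was 0.05 against -0.01 over all probes.

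The partners were bright enough to be measured in every embryo: the representative probes of all 7, and the second Rpp25 probe, were above background on all 8 arrays. None of the 7 passed an adjusted p of 0.05 in homozygous against the 5 other embryos (limma adjusted p from 0.139 to 0.889), where 25 of 23388 probes, 0.107%, did. At an unadjusted p under 0.05 there were 2 partners, Rpp21 and Rpp30, both lower, where 13.4% of all probes tested were lower at that p. All 7 log2 differences were negative, with a median of -0.12. Over all probes the median was -0.06 and 60.2% were negative. The partner median was -0.45 with arrays scaled to their median and -0.48 with the deposited values, where the median of all probes was -0.22 and -0.25, and -0.02 with array weights. It was -0.21 without homozygous embryo 2, -0.22 without embryo 7 and -0.01 without embryo 16. Rpp25, Pop1 and Pop4 turned positive with array weights and without embryo 16. Against wild type 0 partners passed, where 0.0342% of all probes did, 1 (Rpp21) was lower at the unadjusted threshold, where 9.36% were, and 6 of 7 differences were negative, where 59.9% were. Against heterozygous embryos 0 passed, where 0.0214% did, 2 (Rpp21 and Rpp30) were lower at the unadjusted threshold, where 7.85% were, and 6 of 7 were negative, where 60% were. In these 3 comparisons, which share the homozygous arrays, most probes of the array were lower too.

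**Figure D2:**
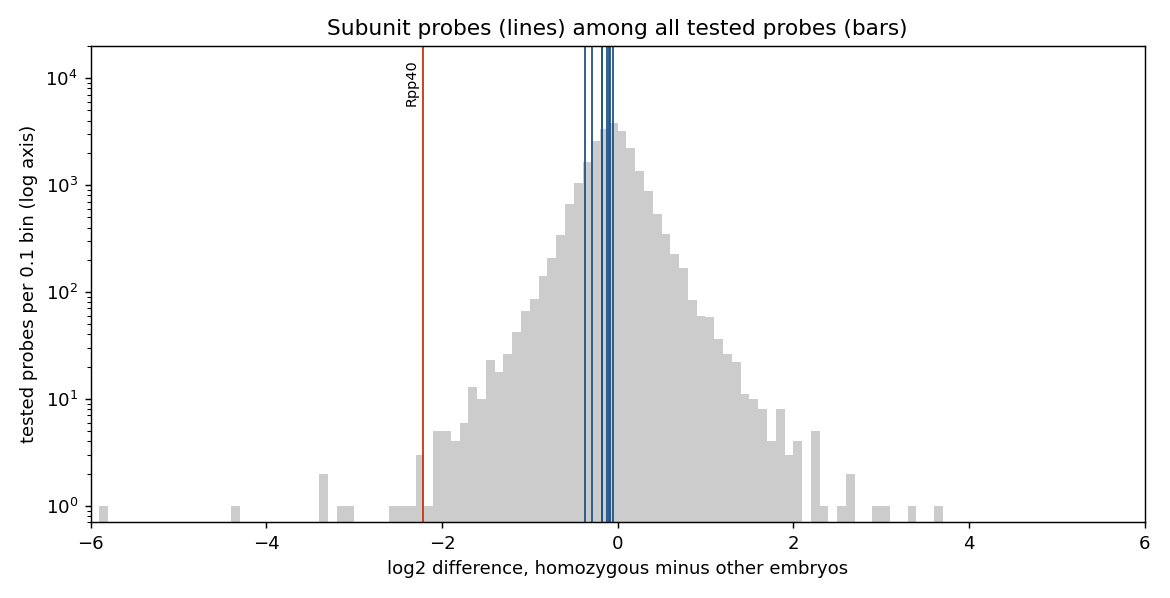
Number of tested probes (log axis) per 0.1 bin of the log2 difference, homozygous minus other embryos (bars), with lines for the 9 subunit probes. Rpp40 lies at -2.22, and the other subunit probes lie between -0.37 and -0.06.

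Within Rpp40's own module, Rpp30 was lower in homozygous embryos without passing the test. Rpp30 and Pop5 pair in the core of this module. Its log2 level was 10.95 and 10.74 in wild type embryos 11 and 13, 10.77, 10.96 and 10.95 in heterozygous embryos 3, 10 and 15, and 10.41, 10.72 and 10.61 in homozygous embryos 2, 7 and 16. The 3 homozygous values lay below the 5 others, though by a margin of 10.72 in embryo 7 against 10.74 in wild type embryo 13. The difference from the others was -0.29 (SE 0.11, 95% interval -0.54 to -0.05, 1.22-fold lower, limma adjusted p = 0.197). Against wild type it was -0.26 (SE 0.14, limma adjusted p = 0.402) and against heterozygous embryos -0.31 (SE 0.13, limma adjusted p = 0.418). Without homozygous embryo 2 the difference from the others was -0.21.

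Pop5, which sits beside Rpp30 in the module, was at 11.79 and 11.57 in wild type embryos, at 11.79, 11.86 and 11.63 in heterozygous embryos and at 11.73, 11.71 and 11.39 in homozygous embryos 2, 7 and 16. The homozygous difference of -0.12 (SE 0.11, 95% interval -0.38 to 0.14, limma adjusted p = 0.574) was within the spread between embryos. Embryo 16 gave the lowest value of all, and embryos 2 and 7 lay among the others. With arrays scaled to their median the Pop5 difference was -0.47, and with the deposited values -0.51, below the interval given, with limma adjusted p-values of 0.212 and 0.184.

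In the module of Rpp21, Pop4 and Rpp38, Rpp21 had the lowest homozygous values relative to the other embryos of all the partners. Rpp21 is the counterpart of yeast Rpr2, a subunit of RNase P and not of RNase MRP. Its log2 level was 10.58 and 10.54 in wild type, 10.40, 10.45 and 10.36 in heterozygous and 10.19, 10.11 and 9.99 in homozygous embryos. The 3 genotypes did not overlap one another, with means of 10.56 ± 0.03 (SD, n = 2), 10.40 ± 0.05 (SD, n = 3) and 10.10 ± 0.10 (SD, n = 3) in that order. How many of all probes set the 3 genotypes apart in this way was not counted. By pairs, 10.3% of probes were lower without overlap in heterozygous than in wild type embryos, and 12.5% in homozygous than in heterozygous embryos. Homozygous embryos were lower than the 5 others by -0.37 on the log2 scale (SE 0.09, 95% interval -0.58 to -0.16, 1.29-fold lower), with an unadjusted p of 0.00345 and a limma adjusted p of 0.139 that did not pass. The difference was -0.46 (SE 0.11, limma adjusted p = 0.21) against wild type and -0.31 (SE 0.10, limma adjusted p = 0.394) against heterozygous embryos, and heterozygous embryos differed from wild type by -0.15 (SE 0.11, limma adjusted p = 0.9999). Before normalization the intensities of Rpp21 did overlap: they were 1179, 1167 and 1025 in homozygous embryos 2, 7 and 16 and 1092 in heterozygous embryo 15.

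Rpp21 and Rpp30 were thus the 2 of 7 partners whose homozygous values did not overlap the others. Over all probes with a value on every array, 9.51% were lower in homozygous embryos without overlap. The same 2 partners lay below without overlap against wild type, where 25% of probes did so, and against heterozygous embryos, where 12.5% did. The summed log2 level of the proliferation genes was 14.25 to 14.29 in homozygous and 14.29 to 14.40 in the other embryos, with 5 of 6 genes measured and above background on all arrays. The median intensity of an array was 61.4 to 87.9 in homozygous and 48.3 to 57.6 in the other embryos. The summed liver markers, of which 5 of 5 had a probe and 4 were above background on all arrays, were at 11.01 to 11.44 against 11.58 to 12.52. Proliferation and liver were the only marker lists whose ranges did not overlap. Among the rest, skeletal muscle was at 13.20 to 13.42 against 12.92 to 13.26 and macrophages at 6.38 to 6.79 against 6.74 to 8.56. The part of any of these in the values of Rpp21 and Rpp30 was not tested, and array brightness and the homozygous genotype cannot be told apart.

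**Figure D3:**
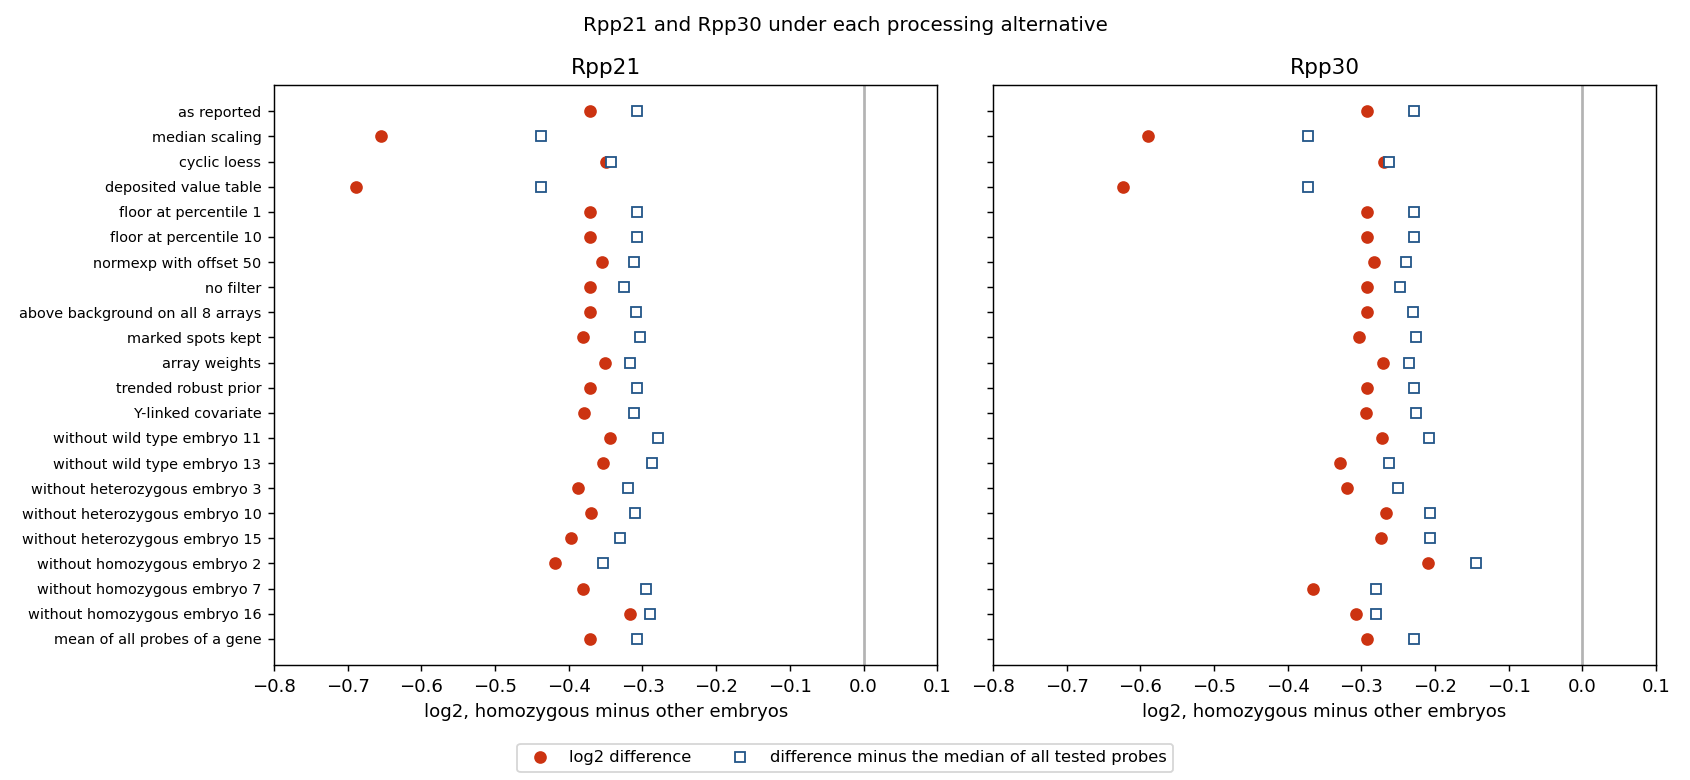
Log2 difference of Rpp21 (left) and Rpp30 (right) between homozygous and the other embryos under each processing alternative (circles), and the same minus the median of all tested probes (squares). Every point is below 0, and the largest differences are those with median-scaled arrays and with the deposited values, where the median of all probes is also lower.

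Both genes kept a negative difference, also relative to the median of all probes, in each of the 21 alternatives that gave this comparison. Homozygous values also stayed below all others in each, but for most alternatives this was fixed or nearly fixed beforehand. Other floors, filters, weights, priors and covariates leave the levels of these probes as they were. Leaving out an embryo takes a value from groups that already did not overlap. The remaining arrays were normalized again there, so levels could shift and alter the narrow margin of Rpp30. The separation could change mainly under another normalization, the deposited values, normexp or with marked spots kept. The difference of Rpp21 ranged from -0.69 to -0.32 and that of Rpp30 from -0.62 to -0.21. Neither gene passed in any of the 21 alternatives, with adjusted p-values from 0.0751 to 0.307 for Rpp21 and from 0.134 to 0.364 for Rpp30 by limma. Without homozygous embryo 16, the array least like the rest, the differences were -0.32 and -0.31.

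Pop4, the RNA-binding partner of Rpp21, did not separate the genotypes. It was at 11.41 and 11.59 in wild type embryos, at 11.62, 11.38 and 11.48 in heterozygous embryos and at 11.45, 11.63 and 11.11 in homozygous embryos 2, 7 and 16. The homozygous difference was -0.10 (SE 0.13, 95% interval -0.39 to 0.19, limma adjusted p = 0.687). Of the 8 embryos, homozygous embryo 16 was the lowest and homozygous embryo 7 the highest, and the difference was 0.04 without embryo 16. It was -0.45 with median-scaled arrays and -0.48 with the deposited values, again without passing.

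Pop7 and Rpp25 are Alba-family proteins that bind the RNA as a pair. Pop7 was at 8.88 and 8.71 in wild type embryos, at 8.91, 9.11 and 8.75 in heterozygous embryos and at 8.85, 8.83 and 8.66 in homozygous embryos. The groups overlapped, with a difference of -0.09 (SE 0.11, 95% interval -0.35 to 0.17, limma adjusted p = 0.667). With median-scaled arrays it was -0.32 and with the deposited values -0.35, neither passing. Rpp25 was read by 2 probes. On the brighter, GE102588, the homozygous values were 6.56, 6.28 and 5.82 and those of the others ran from 5.89 to 6.56, so the groups overlapped across nearly the whole range. The difference was -0.06 (SE 0.20, limma adjusted p = 0.889) on this probe and -0.17 (SE 0.22, limma adjusted p = 0.675) on GE127821, and the sign on the first turned to positive under cyclic loess (0.08), with array weights (0.05), without wild type embryo 13 (0.01) and without homozygous embryo 16 (0.15).

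Rpp25l, a paralog of Rpp25 that is not on the member list, had a probe of its own. It was at 11.86 and 11.80 in wild type embryos, at 11.88, 11.99 and 12.08 in heterozygous embryos and at 11.84, 11.92 and 11.62 in homozygous embryos. Its homozygous difference was -0.13 (SE 0.11, 95% interval -0.37 to 0.11, limma adjusted p = 0.515). That difference was -0.49 with median-scaled arrays and -0.52 with the deposited values, without passing.

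Pop1, the scaffold and largest protein of the enzymes, varied most between embryos among the partners. Its log2 level was 7.19 and 7.28 in wild type embryos 11 and 13, 7.59, 7.90 and 7.86 in heterozygous embryos 3, 10 and 15, and 7.54, 7.93 and 6.71 in homozygous embryos 2, 7 and 16. The homozygous group held both the highest and the lowest value of all 8 embryos. The difference of homozygous from the others was -0.17 (SE 0.28, 95% interval -0.81 to 0.47, limma adjusted p = 0.748), and it turned to 0.17 without embryo 16 and 0.19 with array weights. With median-scaled arrays and with the deposited values it was -0.28 and -0.31. All 3 heterozygous values lay above both wild type values, with a difference of 0.55 (SE 0.32, 95% interval -0.19 to 1.29, limma adjusted p = 0.9999). Such a rise without overlap was found in 9.05% of all probes, and it was seen in 1 of the 7 partners. Rpp21 was the single partner below wild type in all 3 heterozygous embryos, where 10.3% of probes were.

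**Figure D4:**
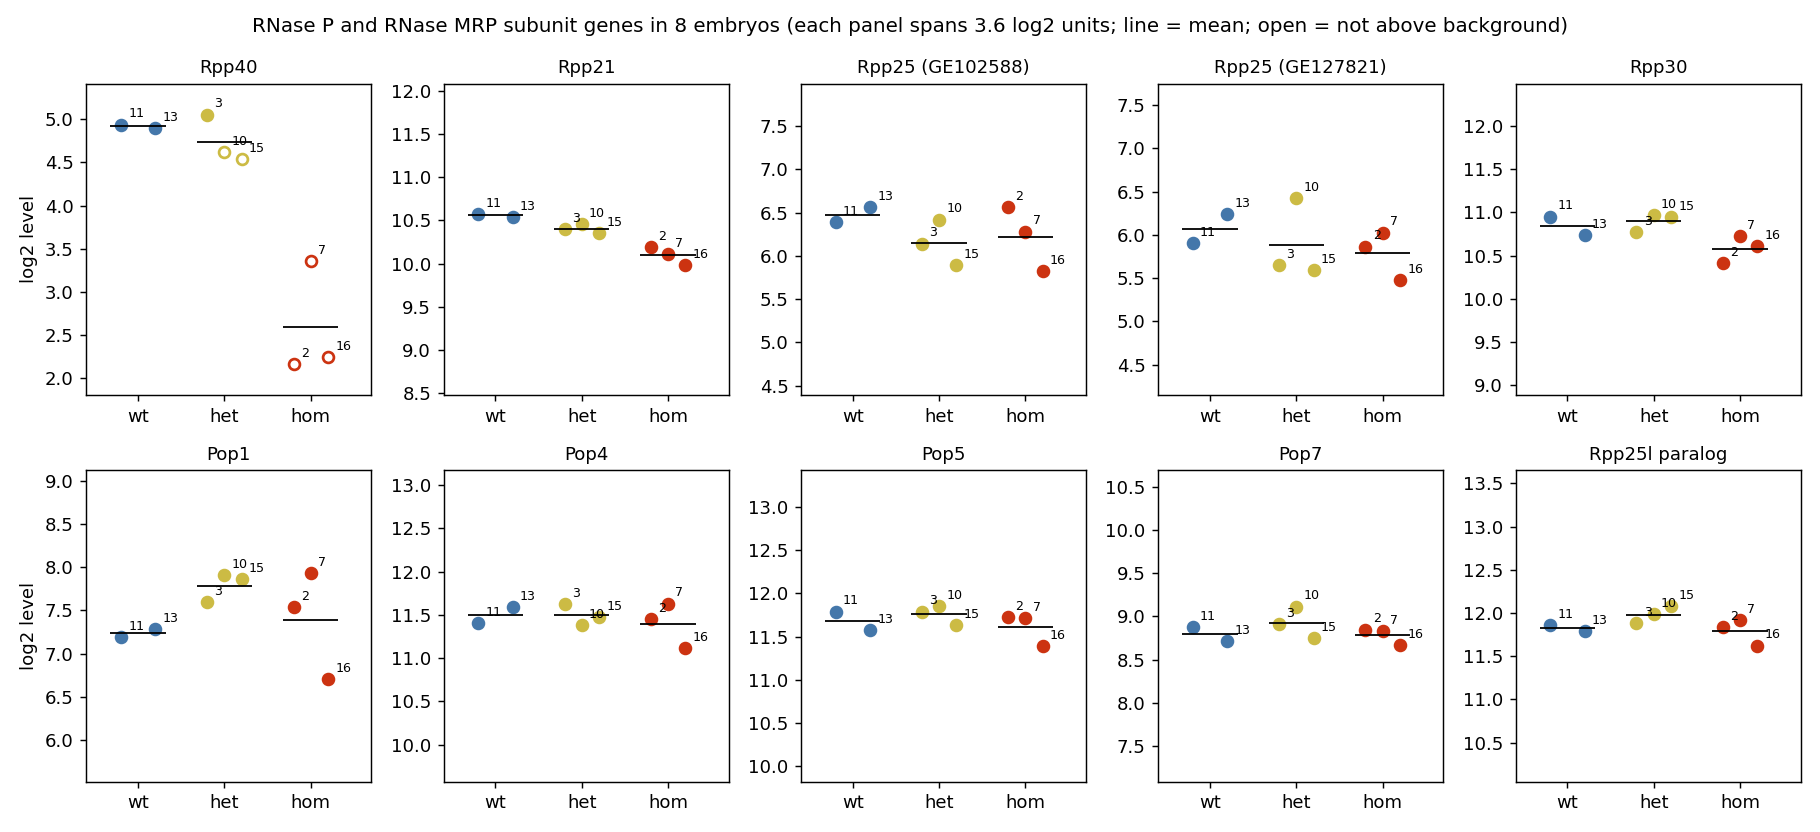
Log2 level of each subunit probe by genotype (wt, wild type; het, heterozygous; hom, homozygous), 1 point per embryo with its number, the group mean as a line and open circles for spots not above background. Each panel spans 3.6 log2 units, so that the homozygous values of Rpp40, between 2.17 and 3.36, can be set beside the spread of its partners.

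The intervals show what these 8 arrays could resolve under the reported processing. The lower end of the 95% interval of homozygous minus other embryos was -0.35 for Pop7, -0.38 for Pop5, -0.39 for Pop4, -0.54 for Rpp30, -0.58 for Rpp21 and -0.81 for Pop1. For Rpp25 it was -0.51 on one probe and -0.67 on the other. In the median partner the deviation from its mean over the embryos was -0.34 in embryo 16 and between -0.03 and 0.17 in the 7 other embryos.

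**Figure D5:**
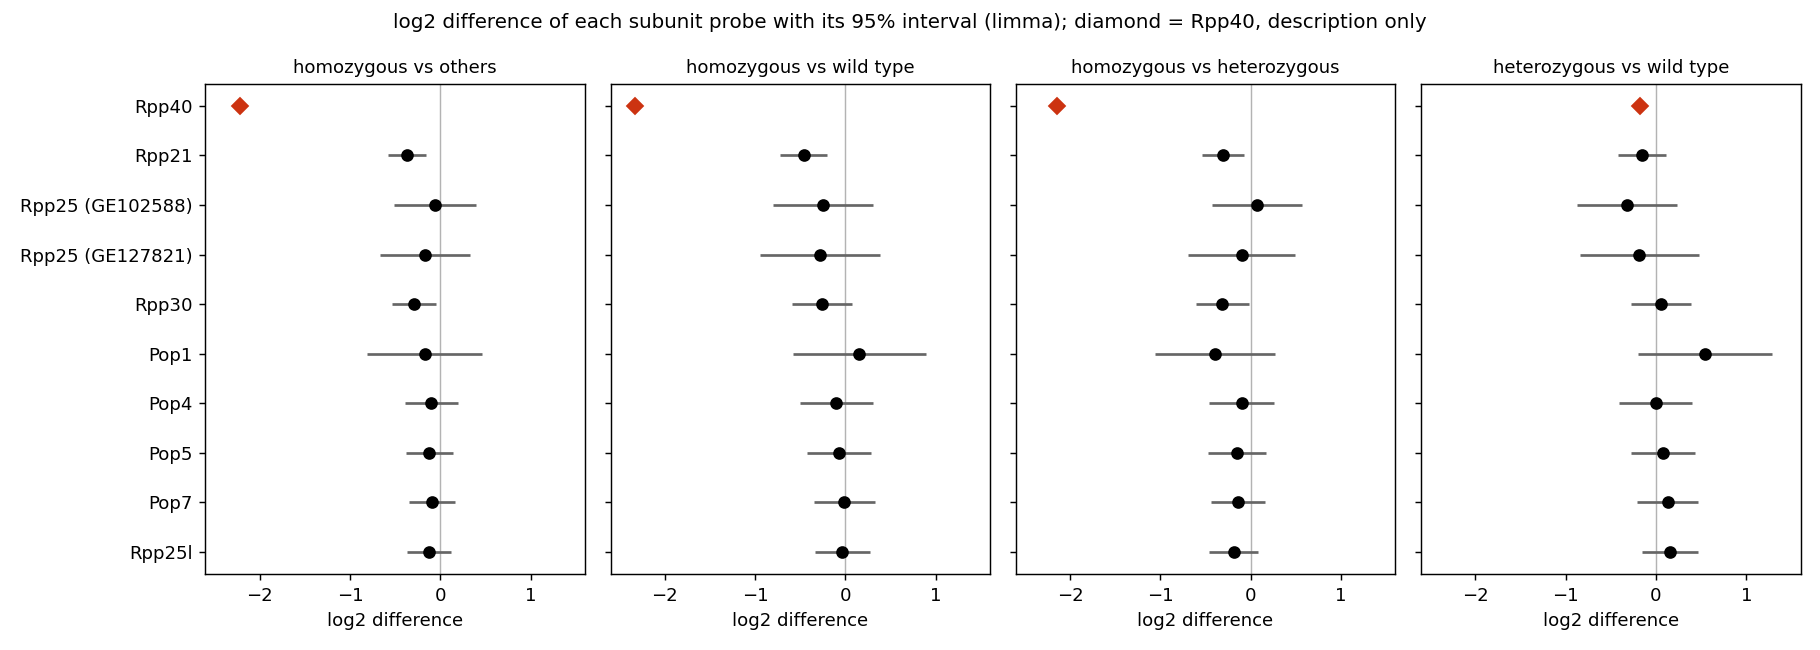
Log2 difference (points) with its 95% limma interval (lines) for each subunit probe in 4 comparisons of genotypes, with Rpp40 shown as a diamond and without an interval, as a description. Rpp40 lies at -2.22, -2.32 and -2.14 in the comparisons with homozygous embryos, and the intervals of Rpp21 end below 0 in all 3, reaching -0.16, -0.20 and -0.07.

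No tested gene beside Rpp40 on chromosome 13 passed the threshold in homozygous against the other embryos. The closest protein-coding neighbour with a probe on one side is Cdyl, a chromodomain corepressor, which was higher in homozygous embryos without passing, at 8.05 against 7.85 (difference 0.21, SE 0.08, limma adjusted p = 0.212). On the other side Ppp1r3g had no matched probe, and Lyrm4, an iron-sulfur cluster assembly factor, was at 5.83 against 6.08 (difference -0.24, SE 0.22, limma adjusted p = 0.554). The mitochondrial phenylalanyl-tRNA synthetase gene Fars2 was at 9.11 against 9.16, and Eci2, a fatty acid oxidation isomerase, at 10.71 against 10.81. The neighbours Eci3 and 4933417A18Rik were above background on 1 and 0 of the 8 arrays and were not tested. None of the 6 genes of the neighbour list that were tested passed in any of the 4 comparisons. At an unadjusted p under 0.05, 0 of the 6 were lower in homozygous against the other embryos, where 13.4% of all tested probes were.

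The candidates were 10838 named probes in the tested set with a value on every array. The 5 whose log2 levels followed Rpp40 most closely over the 8 arrays were those of Plgrkt (Pearson r 0.983), Apobec3 (0.983), Cav2 (0.982), Cnga3 (0.981) and Sstr4 (0.978). Rpp40 itself was above background on only 3 of the 8 arrays, and its value in homozygous embryo 2 is the floor of 2.17. So r rests in large part on values at background. These correlations are a description over 8 arrays that fall into a low homozygous and a high other group, which is how Rpp40 was chosen, and carry no test. Plgrkt, a plasminogen receptor, was at 7.76, 8.06 and 7.60 in homozygous embryos 2, 7 and 16, where the 5 others ran from 8.34 to 8.46. Apobec3, a cytidine deaminase, was at 5.97, 6.45 and 6.16 against 6.77 to 7.00. Of the 5, all but Cnga3 were above background on every array.

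The enzymes that act beside RNase P on tRNA precursors showed no gene past the threshold. Of 22 genes listed for nuclear tRNA maturation 16 were tested, and 0 were higher and 0 lower in any of the 4 comparisons. The median difference in homozygous against the other embryos was -0.02, with 9 of 16 negative, where all tested probes had a median of -0.06, 60.2% negative and 0.107% called. At an unadjusted p under 0.05, 0 of the 16 were lower in that comparison, where 13.4% of all tested probes were. Pus1, a pseudouridine synthase that also acts in mitochondria, was higher without passing, at 10.11 ± 0.09 (SD, n = 3) against 9.80 ± 0.09 (SD, n = 5) elsewhere (difference 0.31, SE 0.09, limma adjusted p = 0.163). Elac2, the RNase Z that trims the other end of the tRNA, was at 8.91 against 9.03 (difference -0.11, limma adjusted p = 0.637). The tRNA ligase Rtcb, the helicase Ddx1 and the splicing endonuclease subunit Tsen34 were among the brightest, with differences of 0.09, -0.02 and 0.05.

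Mitochondria process tRNAs with a separate, protein-only RNase P. Of 10 genes listed for it and for mitochondrial tRNA maturation 9 were tested, and 0 passed in either direction in any of the 4 comparisons. The catalytic subunit gene Prorp had no matched probe. Its partner Trmt10c, a tRNA methyltransferase, was at 6.62 in homozygous and 6.63 in the other embryos (difference -0.01, SE 0.21), and the dehydrogenase Hsd17b10 was at 12.50 against 12.56 (difference -0.06, SE 0.09). The median difference of the list was 0.08 in homozygous against the other embryos, with 4 of 9 negative where 60.2% of all probes were. At an unadjusted p under 0.05, 0 of the 9 were lower, where 13.4% of all tested probes were. Pus1, described above, is on this list too.

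Of 25 genes listed for the processing of precursor ribosomal RNA, not all of which act near the RNase MRP cut, 22 were measured. None passed in either direction in any of the 4 comparisons, and the median difference in homozygous against the other embryos was -0.10, with 17 of 22 negative, where all probes had a median of -0.06, 60.2% negative and 0.107% called. Exosc9, a subunit of the RNA exosome, set homozygous embryos 2 and 7 far apart from the rest. Its log2 level was 10.18 and 10.86 in wild type embryos, 9.85, 10.94 and 10.79 in heterozygous embryos, and 5.17, 5.71 and 10.62 in homozygous embryos 2, 7 and 16. Embryo 16 thus lay among the wild type and heterozygous embryos, and the difference of -3.36 (SE 1.09, limma adjusted p = 0.178) did not pass. Without embryo 16 it was -5.19 (SE 0.32, limma adjusted p = 0.00204), in a fit that called 27 of 23524 probes. That fit drops the homozygous embryo that was not low, so its small p was to be foreseen and is no support. The difference was -2.36 without embryo 2 (limma adjusted p = 0.286) and -2.63 without embryo 7 (limma adjusted p = 0.247). With array weights the Exosc9 difference was -4.62 (limma adjusted p = 0.0284), where 110 of 23388 probes were called. At an unadjusted p under 0.05, 1 of the 22 (Exosc9) was lower in homozygous against the other embryos, where 13.4% of all tested probes were. Rrp1b, a nucleolar factor, was higher without passing, at 9.95 against 9.27 (difference 0.68, SE 0.23, limma adjusted p = 0.187). The exosome genes Exosc2 and Exosc8 were at 11.39 against 11.53 and at 11.48 against 11.68 without passing, and Pes1 and Wdr12, of the complex that matures the large ribosomal subunit, had differences of 0.14 and -0.01.

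RNA polymerase III, which transcribes tRNA genes and the RNAs of RNase P and RNase MRP, was represented by 23 of 29 listed genes. None passed in either direction in any of the 4 comparisons, and the median difference in homozygous against the other embryos was 0.00096, with 11 of 23 negative, where all probes had a median of -0.06, 60.2% negative and 0.107% called. The 4 genes of the list with the highest mean, Polr1d, Polr1c, Maf1 and Snapc2, had differences of 0.06, 0.26, -0.09 and 0.20. At an unadjusted p under 0.05, 3 of the 23 were lower in homozygous against the other embryos, where 13.4% of all tested probes were. Among the 3 was Gtf3c6, a subunit of the initiation factor TFIIIC, at 9.03 ± 0.14 (SD, n = 3) against 9.43 ± 0.09 (SD, n = 5), with a limma adjusted p of 0.137. The polymerase subunit Polr3k was at 10.17 against 10.51 (difference -0.34, SE 0.12, limma adjusted p = 0.187). The polymerase subunit Polr3f was at 7.80, 6.03 and 7.16 in homozygous embryos 2, 7 and 16, where the 5 others ran from 5.83 to 6.41 (difference 0.89, SE 0.34, limma adjusted p = 0.209). Leaving out embryo 7, which lay among the others, gave a Polr3f difference of 1.37 (limma adjusted p = 0.0322), in a fit that called 314 of 23941 probes. That fit drops the homozygous embryo that was not higher, so its small p is no support. Polr3f passed in no other setting.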

How the data were processed

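Expression was measured on 8 CodeLink arrays, 1 embryo each. Per the labels, biotin-labelled cRNA was hybridised. The deposited array files hold an intensity per spot that equals mean spot signal less median local background, as checked on the values. The authors' value table holds the same intensity divided by 1 factor per array (48.6 to 88.5), and differed from the array files by at most 5e-08. For the scanner software version and the genome build, the entry is: not given in the sources used here.

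Control spots were left out, and marked spots (contamination, irregular shape, mask) were treated as missing (206 to 1634 gene probes per array). Saturated spots were kept. Intensities were quantile normalized, floored at the 5th percentile of positive values (4.5, or 2.17 on the log2 scale) and log2 transformed. Between 22526 and 26619 gene probes per array were above background, and 23389 that were so on every array of 1 genotype or more entered limma 3.58.1 in R 4.3.3 (lmFit, eBayes, two-sided, Benjamini-Hochberg over all tested probes, threshold 0.05). One model held 3 genotype means over all 8 arrays, another homozygous against the 5 other embryos. Number of arrays limits the precision. In simulated arrays of homozygous against other embryos, 80 of 100 probes changed by 1 log2 unit and 95 of 100 changed by 2 were called among 23389. These simulated arrays had independent noise per probe, no outlying array and no planted change under 1 log2 unit. They do not show how often changes as small as those of the partners would be called.

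Probes were named through RefSeq accessions in a gene list of GRCm38.p6, which gave 14763 gene probes 1 symbol. For a gene with several probes, the one with the highest mean stood for it. Every member with a probe is named, with list genes past the threshold, up to 4 with the highest mean in each list, genes beside Rpp40 and the 5 probes most correlated with it. Trmt10c, Exosc9, Rrp1b, Gtf3c6, Polr3k and Polr3f fall outside that rule and were chosen after their values were seen. One gene of the RNA polymerase III list is not reported here. The members and lists were chosen with earlier results of these data known.

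Other settings tried were scaling to the array median, normalization by cyclic loess, use of the deposited values, floors at the 1st and 10th percentile, normexp with an offset of 50, no filter, only probes above background on all 8 arrays, marked spots kept, array weights, a trended robust prior, only the groups compared, a covariate from 4 Y-linked probes, the mean of a gene's probes, and each embryo left out in turn.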

Additional observations from a re-analysis of the deposited data

How the results depend on the processing

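The count of partners past the threshold, 0 in each of the 4 comparisons, stayed 0 in every alternative run. Their median difference moved by more than the spread between embryos with median-scaled arrays and with the deposited values: to -0.45 and -0.48 in homozygous against other embryos, -0.41 and -0.45 against wild type and -0.48 and -0.52 against heterozygous embryos. The median of all probes in the first comparison also moved there, to -0.22 and -0.25. The Rpp40 difference was -2.77 with a floor at percentile 1 and -0.48 after normexp, ranged from -2.59 to -1.99 as embryos were left out, and could not be fitted among probes above background on all 8 arrays.

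Some differences changed sign without passing, and not all of these were near 0. As reported, Pop1 against the others was -0.17 and GE127821 in heterozygous against wild type was -0.18. Under cyclic loess the changes of sign were Rpp25 against the others (0.0793), Rpp25 probe GE127821 against heterozygous (0.0416), Pop7 against wild type (0.00337) and Pop4 in heterozygous against wild type (0.0104). Pop4 in that comparison was also positive with arrays scaled to the median (0.00918), with the deposited values (0.00742), with array weights (0.0268) and with the Y-linked covariate (0.076). With the deposited values Pop1 against wild type was -0.0105. With array weights Rpp25 (0.0483), Pop1 (0.19) and Pop4 (0.021) turned against the others, Pop4 (0.025), Pop5 (0.0123), Pop7 (0.0308) and Rpp25l (0.0385) against wild type, and GE127821 (0.12) against heterozygous. With the Y-linked covariate Pop5 (0.00689), Pop7 (0.0632) and Rpp25l (0.00728) turned against wild type, GE127821 (0.22) in heterozygous against wild type, and Rpp25 (-0.0781) against heterozygous, as did Rpp25 as the mean of both probes (-0.0143).

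Leaving out each embryo in turn, homozygous against others ranged from -0.23 to 0.15 for Rpp25, -0.44 to 0.17 for Pop1 and -0.22 to 0.0443 for Pop4. Against wild type the ranges were -0.11 to 0.51 for Pop1, -0.22 to 0.0428 for Pop4, -0.18 to 0.0371 for Pop5, -0.0945 to 0.0655 for Pop7 and -0.0982 to 0.0504 for Rpp25l. Against heterozygous embryos they were -0.0978 to 0.28 for Rpp25, -0.25 to 0.17 for GE127821 and -0.21 to 0.0453 for Pop4. In heterozygous against wild type they were -0.0574 to 0.16 for Rpp30, -0.0923 to 0.0854 for Pop4 and -0.0294 to 0.19 for Pop5. The median partner difference ranged from -0.22 to -0.01 against the others, -0.22 to 0.04 against wild type, -0.03 to 0.16 in heterozygous against wild type and -0.23 to -0.05 against heterozygous embryos. Calls in the pre-rRNA list ranged from 0 to 1 in the 3 comparisons with homozygous embryos (Exosc9 without embryo 16), and in the RNA polymerase III list from 0 to 1 (Polr3f without embryo 7). Without a wild type embryo the lone one is assumed to vary like the other groups.

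The approximate bound of Rpp40 against the others, 0.76 on the log2 scale, ranged from 0.44 to 0.93 with each homozygous embryo left out, an alternative chosen after seeing the data. The cause of these shifts was not tested. A slide or scan block was not run, since the file headers give no batch that holds more than 1 array. No paired analysis was possible because the embryo numbers are not shared between genotypes.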
